A study of Mus musculus with 8 samples.

Results

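The genes described here encode the nuclear subunits of mitochondrial oxidative phosphorylation, read across 4 conditions of an osteoblast and tumour cell co-culture. They were taken by name, as every gene name on the array that starts with Nduf followed by a, b, c, s or v, with Cox4 to Cox8, with Uqcr or with Atp5, together with Sdha to Sdhd. The rule for names used no measured value, though it was set with earlier results of these data known. It took 82 of 27962 gene names, of which 79 are subunits or isoforms of them and 3 are not: Ndufaf1 is an assembly factor of complex I, Cox4nb is named Emc8 by RefSeq and belongs to a membrane complex of the endoplasmic reticulum, and Atp5s is named Dmac2l by RefSeq. Complex I had 37 names with Ndufaf1, complex II had 4, complex III had 7, complex IV had 18 with Cox4nb, and complex V had 16 with Atp5s. Complexes were assigned by name alone, so Ndufa4 is counted with complex I and Cox7a2l with complex IV throughout. The 82 names had 113 probes, and each gene was read from the probe with the brightest Cy3 signal.

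RNA came from MC3T3-E1 cells, a mouse osteoblast line from skull bone, in co-culture with tumour cells, and it filled the Cy3 channel of an Agilent array. There were 4 groups of 2 arrays: Jagged1 MRK-003, Jagged1 DMSO, vector MRK-003 and vector DMSO. In the Jagged1 groups the tumour cells overexpressed Jagged1, a membrane-bound ligand of Notch receptors, and in the vector groups they carried the empty control. MRK-003 blocks gamma-secretase, which cuts Notch receptors and so frees their active part, and DMSO is its solvent. Every array had the same Universal Mouse Reference RNA in Cy5 and no dyes were swapped, so a level is given as log2 of Cy3 over Cy5 and is only comparable within 1 gene. The labels used here do not state the tumour line, its species, the dose and length of treatment, or any separation of osteoblasts before extraction. In such a mixture, fewer cells of a type and less RNA per cell cannot be told apart.

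Oxidative phosphorylation makes most of the ATP of cells that respire. Complex I (NADH dehydrogenase) and complex II (succinate dehydrogenase) pass electrons to ubiquinone, complex III (cytochrome bc1) passes them on to cytochrome c, and complex IV (cytochrome c oxidase) passes them to oxygen. Complexes I, III and IV pump protons across the inner membrane, and complex V (ATP synthase) uses that gradient to make ATP. Osteoblasts are known to use both glycolysis and respiration, and their respiration is known to increase as they mature. The nuclear genes of these complexes are known targets of the factors NRF1, GABPA (an ETS factor), YY1 and the ERR receptors, which is why their start regions were read.

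A window of 250 bases before to 50 after the start was found in RefSeq (GRCm38.p6) for 67 of the 82 names. The letters of the NRF1 motif (GCGCA and GCGC with any base between them, both strands) stood in the windows of 17 of these 67 genes (25.4%), against 5.19% of 27025 genes with a window. The ETS letters (CCGGAAG, both strands) also stood in 17 (25.4%), against 9.93% of all genes. YY1 letters (AAGATGGCG) stood in 7 (10.4%), against 1.64%, and ERR letters (TCAAGGTCA) in 2 (2.99%), against 0.466%. At least 1 of the NRF1 and ETS motifs was in 30 windows (44.8%), against 14.0% of all genes. A match to these letters is a description of the sequence and not a binding site. The windows below, read along the gene, belong to 5 genes chosen to show each motif, and to Cox7a1, whose window held none of the 4 motifs. The 5 were among members whose difference between MRK-003 and DMSO passed the test in the slide-blocked fit with limited background described further on. The other members called in that fit, Ndufa13, Ndufa4, Uqcrfs1, Cox7b and Atp5b, also had none of the 4 motifs in their windows. Capitals mark a motif match on either strand.
Sdhd (chr9:50603800-50604099, minus strand): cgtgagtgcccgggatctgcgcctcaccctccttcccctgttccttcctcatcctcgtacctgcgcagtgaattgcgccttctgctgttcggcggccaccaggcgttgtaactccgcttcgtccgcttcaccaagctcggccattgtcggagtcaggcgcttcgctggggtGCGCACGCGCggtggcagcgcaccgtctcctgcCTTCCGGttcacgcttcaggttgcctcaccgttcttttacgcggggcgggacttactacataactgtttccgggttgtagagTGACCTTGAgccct
Cox8a (chr19:7217567-7217866, minus strand): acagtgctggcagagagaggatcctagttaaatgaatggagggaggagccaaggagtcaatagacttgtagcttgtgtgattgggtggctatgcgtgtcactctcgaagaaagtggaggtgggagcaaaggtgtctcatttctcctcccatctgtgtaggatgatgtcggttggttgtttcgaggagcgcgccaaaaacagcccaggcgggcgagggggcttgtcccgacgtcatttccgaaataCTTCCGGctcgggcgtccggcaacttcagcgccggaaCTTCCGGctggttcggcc
Ndufa8 (chr2:36049289-36049588, minus strand): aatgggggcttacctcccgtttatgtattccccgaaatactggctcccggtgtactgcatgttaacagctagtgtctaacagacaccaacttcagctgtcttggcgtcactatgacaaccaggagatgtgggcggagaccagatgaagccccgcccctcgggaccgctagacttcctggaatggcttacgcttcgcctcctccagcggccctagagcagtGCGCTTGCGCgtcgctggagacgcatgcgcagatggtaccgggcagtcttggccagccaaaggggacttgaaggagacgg
Ndufb7 (chr8:83566508-83566807, plus strand): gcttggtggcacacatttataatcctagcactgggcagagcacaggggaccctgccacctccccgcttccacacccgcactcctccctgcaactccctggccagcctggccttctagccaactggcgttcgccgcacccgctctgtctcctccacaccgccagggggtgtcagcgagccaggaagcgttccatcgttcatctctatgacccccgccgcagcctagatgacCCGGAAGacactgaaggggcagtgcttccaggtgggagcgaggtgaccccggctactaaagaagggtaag
Ndufs4 (chr13:114388045-114388344, minus strand): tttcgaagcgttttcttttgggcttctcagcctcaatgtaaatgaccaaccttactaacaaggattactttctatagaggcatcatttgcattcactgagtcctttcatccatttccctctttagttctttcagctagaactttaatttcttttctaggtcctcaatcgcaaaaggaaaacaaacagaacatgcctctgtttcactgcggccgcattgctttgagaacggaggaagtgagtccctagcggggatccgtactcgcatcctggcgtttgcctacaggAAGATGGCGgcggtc
Cox7a1 (chr7:30183921-30184220, plus strand): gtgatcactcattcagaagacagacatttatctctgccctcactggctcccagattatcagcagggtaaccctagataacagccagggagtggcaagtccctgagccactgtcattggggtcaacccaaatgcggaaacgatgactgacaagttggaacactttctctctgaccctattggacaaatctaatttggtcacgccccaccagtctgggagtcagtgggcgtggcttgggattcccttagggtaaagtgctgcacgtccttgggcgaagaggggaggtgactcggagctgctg
The Sdhd window holds NRF1, ETS and ERR letters, the Cox8a window holds the ETS letters at 2 places, the Ndufa8 window holds the NRF1 letters once, the Ndufb7 window holds the ETS letters once, and the YY1 letters of Ndufs4 lie 36 bases after the start.

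Of the 82 genes, 81 were well above background in Cy3 on all 8 arrays and were tested. Cox8c, a complex IV isoform known from testis, was well above background on 1 array and was not tested. The arrays lay on 2 slides, with replicate 1 of each group on slide 1 and replicate 2 on slide 2, and slide 2 was dimmer, with a median Cy3 signal of 76.5 to 117, against 165 to 204 on slide 1. On both Jagged1 DMSO arrays and on replicate 2 of Jagged1 MRK-003, a few spots had a local Cy3 background of up to 2414.5, 21069 and 32904 units, against array medians of 27 to 30.5. An alternative limited each spot's background to 2 times the array median, and its values are given beside the calls, medians and isoforms that it moved most. In Cy5, the spots of 22 members were saturated on at least 1 array, for 15 of them on slide 1 only. As a check of the labels, the Notch pathway gene Dtx4 differed by 1.70 (log2) in Jagged1 DMSO against vector DMSO (adjusted p = 0.024, limma) and by -3.05 in Jagged1 MRK-003 against Jagged1 DMSO (adjusted p = 0.0017). The Jag1 probe differed by 1.07 and by -1.22 in these comparisons. All 10 osteoblast markers, Runx2 and Ibsp among them, were well above background on the 8 arrays.

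Relative to the reference RNA, the median member stood at -0.27 on the log2 scale, against -0.00 for the median of all 22775 genes tested. Only 6 members were above the reference on all 8 arrays, among them Ndufs8, Ndufa3, Sdhc, Cox6a1 and Ndufaf1. A further 41 were below it on all 8 arrays and 35 were on both sides. The median SD of a member within a group was 0.126, which is the scale on which the differences below are read. Complex I medians were -0.17 and -0.13 in Jagged1 MRK-003, -0.42 and -0.31 in Jagged1 DMSO, -0.16 and -0.15 in vector MRK-003, and -0.35 and -0.18 in vector DMSO. For complex IV they were -0.26 and -0.33 in Jagged1 MRK-003, -0.50 and -0.57 in Jagged1 DMSO, -0.23 and -0.31 in vector MRK-003, and -0.44 and -0.60 in vector DMSO. In both complexes, the medians of the MRK-003 arrays were above those of the DMSO arrays from the same slide. Complex III had medians between -0.79 and -0.64 on all 8 arrays. On slide 1 they were lower in MRK-003 than in DMSO, at -0.79 against -0.70 with Jagged1 cells and -0.76 against -0.74 with vector cells. The differences taken gene by gene went the other way there. Their medians were 0.29 with Jagged1 cells and 0.18 with vector cells, with 5 of 7 genes above 0 in each. Complex II was lower in MRK-003 on slide 2, at -0.29 against -0.26 and -0.24 against -0.16. Complex V was lower there with vector cells only, at -0.102 against -0.095. The remaining medians of complexes II, III and V were higher in MRK-003.

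**Figure D1:**
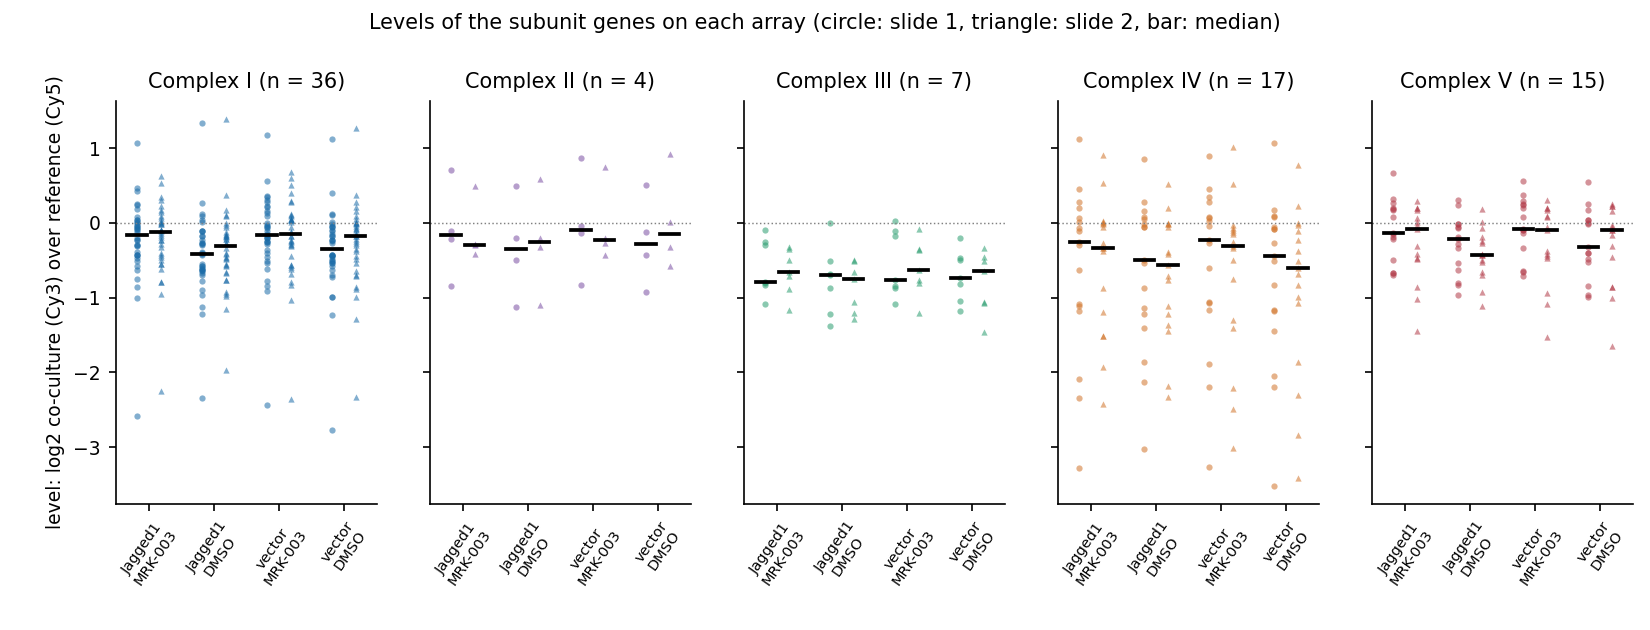
Levels of the subunit genes (log2 co-culture over reference RNA) on each of the 8 arrays, by complex. Each point is a gene, circles are slide 1, triangles are slide 2 and bars are medians. Most genes lie within 1 log2 unit of the reference, and the medians of complexes I and IV are higher on MRK-003 arrays than on DMSO arrays of the same slide.

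By complex, the highest ratio to the reference belonged to Sdhc (a membrane anchor) in complex II, with a mean of 0.67, to Uqcrh (the hinge protein) in complex III with -0.25, to Cox6a1 in complex IV with 0.82 and to Atp5b (the catalytic beta subunit) in complex V with 0.23. The lowest in complexes I to V belonged to Ndufa6 (-2.38), Sdhd (-0.78), Uqcrfs1 (-1.06), Cox6a2 (-3.03) and Atp5k (-1.13). The Cy5 spot was saturated on all 8 arrays for Uqcrh and Cox6a1 and on 7 for Atp5b, and since a capped Cy5 value raises the ratio, the places of these 3 are uncertain. The highest members with no saturated spot were Cox7a2l in complex IV with 0.28 and Atp5j in complex V with 0.18. These ratios carry probe and dye effects, so their order across genes is a description and not a ranking by share or amount of RNA.

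Several complex IV subunits have tissue isoforms. Cox6a2, the heart and skeletal muscle form of subunit 6a, stood at -3.28 and -2.42 in Jagged1 MRK-003, -3.02 and -2.33 in Jagged1 DMSO, -3.27 and -3.01 in vector MRK-003 and -3.52 and -3.41 in vector DMSO. Its widely expressed counterpart Cox6a1 stood at 1.12 and 0.90 in Jagged1 MRK-003, 0.86 and 0.51 in Jagged1 DMSO, 0.89 and 1.01 in vector MRK-003 and 1.07 and 0.22 in vector DMSO, with Cy5 saturated on all 8 arrays and Cy3 on 4. The muscle form Cox7a1 stood between -2.49 and -1.45 over the 8 arrays, and the widely expressed Cox7a2 between -1.86 and -1.06. Cox8a, the widely expressed form of subunit 8, ranged from -0.57 to 0.46, and Cox8b, a muscle form in mouse, from -0.09 to 0.08. The lung form Cox4i2 ranged from -0.11 to 0.10 and the testis form Cox6b2 from -0.23 to 0.08. Cox4i2 and Cox8b were dim, with mean Cy3 signals of 53.5 and 75.5 units. Of the 3 genes for the same mature c subunit of ATP synthase, Atp5g1 averaged -0.30, Atp5g2 averaged -0.90 and Atp5g3 averaged -0.03. Cox7a2l, a factor of supercomplex assembly, averaged 0.28.

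The first comparison asks what gamma-secretase inhibition did where the tumour cells overexpressed Jagged1. In Jagged1 MRK-003 against Jagged1 DMSO, the members leaned upward together by a small amount: 66 of 81 had a difference above 0, against 48.6% of all genes tested, and the median difference was 0.16 on the log2 scale, or 1.12-fold, against -0.00 for all genes. No member passed an adjusted p of 0.05 in limma in either direction, where 0.119% of all genes were called higher and 0.193% lower. At an unadjusted p under 0.05, 11 members were higher, against 4.83% of all genes, and 0 were lower, against 3.91%. With the slide as a block, which pairs the arrays, 32 members were higher at this p, against 9.07% of all genes, and 1 was lower, against 6.63%. The 2 groups did not overlap for 39 members on the higher side, against 18.5% of all genes, and for 2 on the lower side, against 16.0%. The lean was present within each slide, with a median of 0.20 and 68 members above 0 on slide 1, and a median of 0.15 and 59 above 0 on slide 2. With 2 arrays against 2, a permutation test of single genes cannot go below a two-sided exact p of 0.333.

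By complex, the median difference in Jagged1 MRK-003 against Jagged1 DMSO was 0.20 for complex I (32 of 36 subunits above 0), 0.11 for complex II (4 of 4), 0.27 for complex III (6 of 7), 0.09 for complex IV (9 of 16) and 0.17 for complex V (12 of 15). Complex II, with 4 genes, had medians of 0.25 on slide 1 and -0.03 on slide 2. Complex IV was the one that the limited background moved most, to a median of 0.14 with 12 of 16 above 0, and the slide 2 median of complex II became -0.00.

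Fitting the slide as a block together with the limited background called 10 members higher and 0 lower at an adjusted p under 0.05 in limma, where that fit called 5.83% of all genes higher and 3.89% lower. The 10 are Ndufa8, Ndufs4, Ndufa13, Ndufa4 and Ndufb7 of complex I, Sdhd of complex II, Uqcrfs1 of complex III, Cox7b and Cox8a of complex IV, and Atp5b of complex V. Either change alone called 0 members, where the limited background called 1.07% of all genes higher and 1.12% lower, and the block called 1.35% higher and 0.94% lower. Dropping any single array, of any of the 4 groups, lowered the number of members called. The vector arrays do not enter this difference itself, only the shared estimate of spread. Fewer calls without a vector array thus reflect that estimate and not a changed difference. When replicate 2 of Jagged1 DMSO, replicate 1 of Jagged1 MRK-003 or its replicate 2 was dropped, 0 members were called, against 4.45%, 3.47% and 2.27% of all genes in either direction. When replicate 1 of Jagged1 DMSO was dropped, 7 of 81 were called, 5 of them among the 10, against 12.2% of all genes. When any 1 vector array was dropped, 1 of the 10 was called, against 8.08% of all genes without an array of vector DMSO and 7.8% without one of vector MRK-003. In none of these fits was the share of members called above that of all genes.

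Ndufa8, an accessory subunit of complex I, stood at 0.23 and 0.22 in Jagged1 MRK-003, -0.11 and -0.14 in Jagged1 DMSO, 0.21 and 0.29 in vector MRK-003, and -0.01 and 0.02 in vector DMSO. The MRK-003 arrays were the higher ones with both kinds of tumour cell, with no overlap. Its difference with Jagged1 cells was 0.36 ± 0.07 (SE, limma, adjusted p = 0.16). In the slide-blocked fit with limited background, called the blocked fit below, it was 0.37 (adjusted p = 0.033, limma). Ndufs4, an accessory subunit on the NADH-oxidising arm, stood at -0.05 and 0.53 in Jagged1 MRK-003, -0.40 and -0.17 in Jagged1 DMSO, -0.05 and 0.60 in vector MRK-003, and -0.24 and 0.27 in vector DMSO. The 2 arrays of a group lay far apart for this gene, and within each slide the MRK-003 array was the higher one. Its difference with Jagged1 cells was 0.52 ± 0.31 (adjusted p = 0.87), and 0.54 with an adjusted p of 0.035 in the blocked fit.

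Ndufa4, first described in complex I and later found with complex IV, stood at 0.03 and 0.18 in Jagged1 MRK-003, -0.30 and -0.21 in Jagged1 DMSO, 0.14 and 0.27 in vector MRK-003, and -0.06 and -0.07 in vector DMSO. Again no MRK-003 array overlapped a DMSO array of the same tumour cells. Ndufa13, also known as GRIM-19, stood at 0.42 and 0.14 in Jagged1 MRK-003, 0.03 and -0.19 in Jagged1 DMSO, 0.31 and 0.05 in vector MRK-003, and 0.11 and 0.00 in vector DMSO. Ndufb7, an accessory subunit, stood at -0.23 and -0.10 in Jagged1 MRK-003, -0.60 and -0.40 in Jagged1 DMSO, -0.26 and -0.12 in vector MRK-003, and -0.44 and -0.24 in vector DMSO. For both genes the 2 Jagged1 groups did not overlap and the vector groups did, while on each slide the vector MRK-003 array was above the vector DMSO array. Sdhd, which anchors succinate dehydrogenase in the membrane, stood at -0.85 and -0.41 in Jagged1 MRK-003, -1.12 and -1.09 in Jagged1 DMSO, -0.83 and -0.43 in vector MRK-003, and -0.92 and -0.58 in vector DMSO. Jagged1 DMSO was the lowest group for this gene and the other 3 overlapped, with vector MRK-003 above vector DMSO on each slide. Uqcrfs1, the Rieske iron-sulfur protein of complex III, stood at -1.09 and -0.65 in Jagged1 MRK-003, -1.38 and -1.21 in Jagged1 DMSO, -1.09 and -0.81 in vector MRK-003, and -1.18 and -1.05 in vector DMSO. Jagged1 DMSO was the lowest group here too, on each slide, and vector MRK-003 was again above vector DMSO on each. Cox7b, an X-linked subunit, stood at -1.09 and -0.87 in Jagged1 MRK-003, -1.41 and -1.22 in Jagged1 DMSO, -1.07 and -0.75 in vector MRK-003, and -1.18 and -0.997 in vector DMSO. Its Jagged1 groups did not overlap, and its vector groups did, though MRK-003 was the higher one on each slide with both kinds of tumour cell. In the blocked fit, the adjusted p with Jagged1 cells was 0.042 for Ndufa4 (0.36), 0.047 for Ndufa13 (0.36), 0.043 for Ndufb7 (0.34), 0.046 for Sdhd (0.50), 0.036 for Uqcrfs1 (0.46) and 0.042 for Cox7b (0.38), by limma.

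For the last 2 of the 10, the groups overlapped and the Cy5 spot was saturated, on 8 arrays for Cox8a and on 7 for Atp5b. Atp5b stood at 0.67 and 0.29 in Jagged1 MRK-003, 0.31 and -0.49 in Jagged1 DMSO, 0.55 and 0.08 in vector MRK-003, and 0.55 and -0.09 in vector DMSO. Its difference with Jagged1 cells, 0.57 ± 0.35 (adjusted p = 0.89), was the largest of the members, while 2 dimmer Atp5b probes gave -0.05 and 0.06. Cox8a stood at 0.46 and 0.03 in Jagged1 MRK-003, 0.15 and -0.57 in Jagged1 DMSO, 0.45 and -0.07 in vector MRK-003, and 0.17 and -0.51 in vector DMSO. In each slide taken alone, the MRK-003 array was the higher one for Cox8a with both kinds of tumour cell. In the blocked fit their adjusted p was 0.023 (Atp5b, 0.57) and 0.032 (Cox8a, 0.44), by limma. Members had 26 other probes that were well above background on 8 arrays. With Jagged1 cells, 19 of these had the sign of the probe used, and their median difference was 0.12, against 0.22 for the probes used. With vector cells, 18 had the same sign, and the medians were 0.07 and 0.12.

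**Figure D2:**
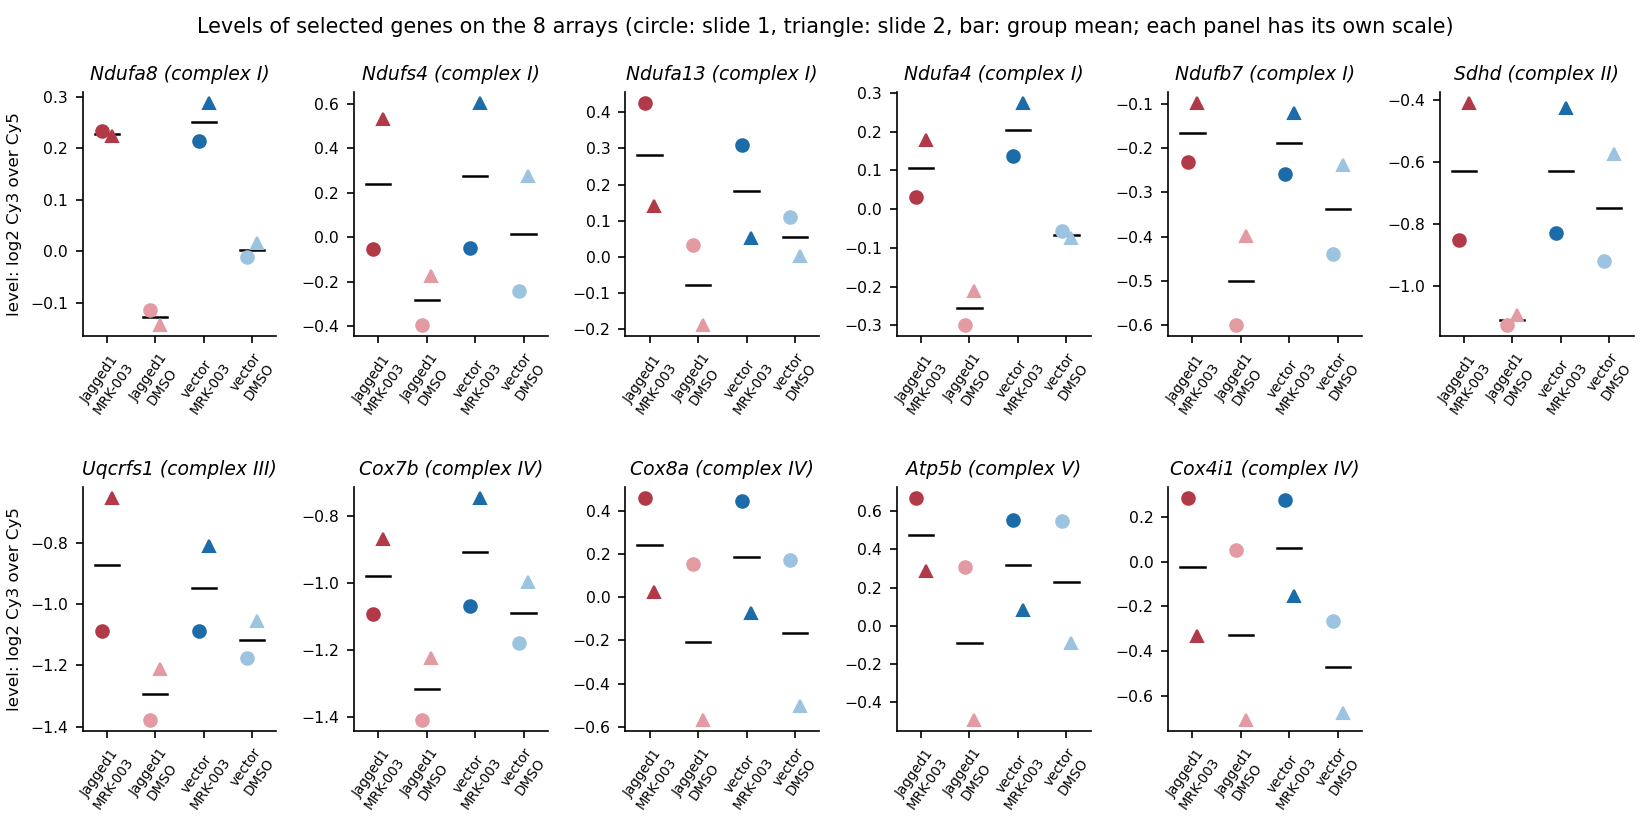
Levels (log2 Cy3 over Cy5) on the 8 arrays for the 10 members called in the slide-blocked fit with limited background and for Cox4i1. Circles are slide 1, triangles are slide 2, bars are group means, and each panel has its own scale. Ndufa8 and Ndufa4 separate MRK-003 from DMSO arrays in both co-cultures, while Atp5b and Cox8a overlap.

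With Jagged1 tumour cells, Ndufa6, an accessory subunit, differed by -0.26 ± 0.21 and Ndufv1, which holds the flavin that oxidises NADH, by -0.17 between MRK-003 and DMSO. Further core subunits of complex I had differences of 0.32 (Ndufs1), 0.21 (Ndufs3), 0.12 (Ndufs7), 0.06 (Ndufs8) and 0.09 (Ndufv2). Sdha, the flavoprotein of complex II, differed by 0.00, Sdhb by 0.15 and Sdhc by 0.06. In complex III, the core proteins Uqcrc1 and Uqcrc2 differed by 0.06 and -0.06, while the small subunits Uqcr (Uqcr11), Uqcrb and Uqcrq differed by 0.28, 0.28 and 0.27. Cox5a and Cox5b differed by -0.03 and 0.20, and Cox6c by 0.32. In complex V, the alpha subunit Atp5a1 differed by 0.26, the gamma subunit Atp5c1 by 0.06, and the c subunit genes by 0.09 (Atp5g1), 0.03 (Atp5g2) and 0.33 (Atp5g3). None of these passed the adjusted threshold in limma.

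With vector tumour cells, where no ligand was overexpressed, the lean was nearly as large. In vector MRK-003 against vector DMSO, 66 of 81 members were above 0, against 51.5% of all genes, with a median difference of 0.13, against 0.005 for all genes. No member and no gene at all was called at an adjusted p of 0.05 in limma (0.0% in either direction). At an unadjusted p under 0.05, 8 members were higher, against 1.41% of all genes, and 0 were lower, against 2.23%. With the slide as a block, 18 were higher, against 3.53% of all genes, and 0 were lower, against 4.75%. Without the block, the 8 are Ndufa4, Ndufa8, Ndufb2, Ndufb6, Ndufs6, Uqcrb, Cox6b1 and Cox6c, and Ndufa4, Ndufa8, Ndufb2, Uqcrb and Cox6c were also among the 11 with Jagged1 cells. Groups did not overlap for 23 members on the higher side, against 13.6% of all genes, and for 1 on the lower side, against 12.2%. Medians by complex were 0.15 (I, 31 of 36 above 0), 0.11 (II, 3 of 4), 0.21 (III, 5 of 7), 0.23 (IV, 12 of 16) and 0.09 (V, 13 of 15). On slide 1 the median over members was 0.18 and on slide 2 it was 0.12, and complex V had a median of -0.03 on slide 2.

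The largest differences with vector cells were those of Cox4i1, Atp5e and Cox7a2. Cox4i1, the widely expressed form of the largest nuclear complex IV subunit, stood at 0.28 and -0.15 in vector MRK-003 and -0.27 and -0.68 in vector DMSO, a difference of 0.54 ± 0.34 (adjusted p = 1.00, limma), with Cy5 saturated on 6 arrays. On each slide the MRK-003 array was the higher one, by 0.54 and 0.53. Atp5e, the epsilon subunit of ATP synthase, stood at -0.10 and -0.41 in vector MRK-003 and -0.52 and -0.85 in vector DMSO, and Cox7a2 stood at -1.06 and -1.40 in vector MRK-003 and -1.45 and -1.86 in vector DMSO. The second probe of Cox7a2 gave 0.35, against 0.42 for the one used. Cox5a and Sdha differed by -0.12 and -0.10.

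**Figure D3:**
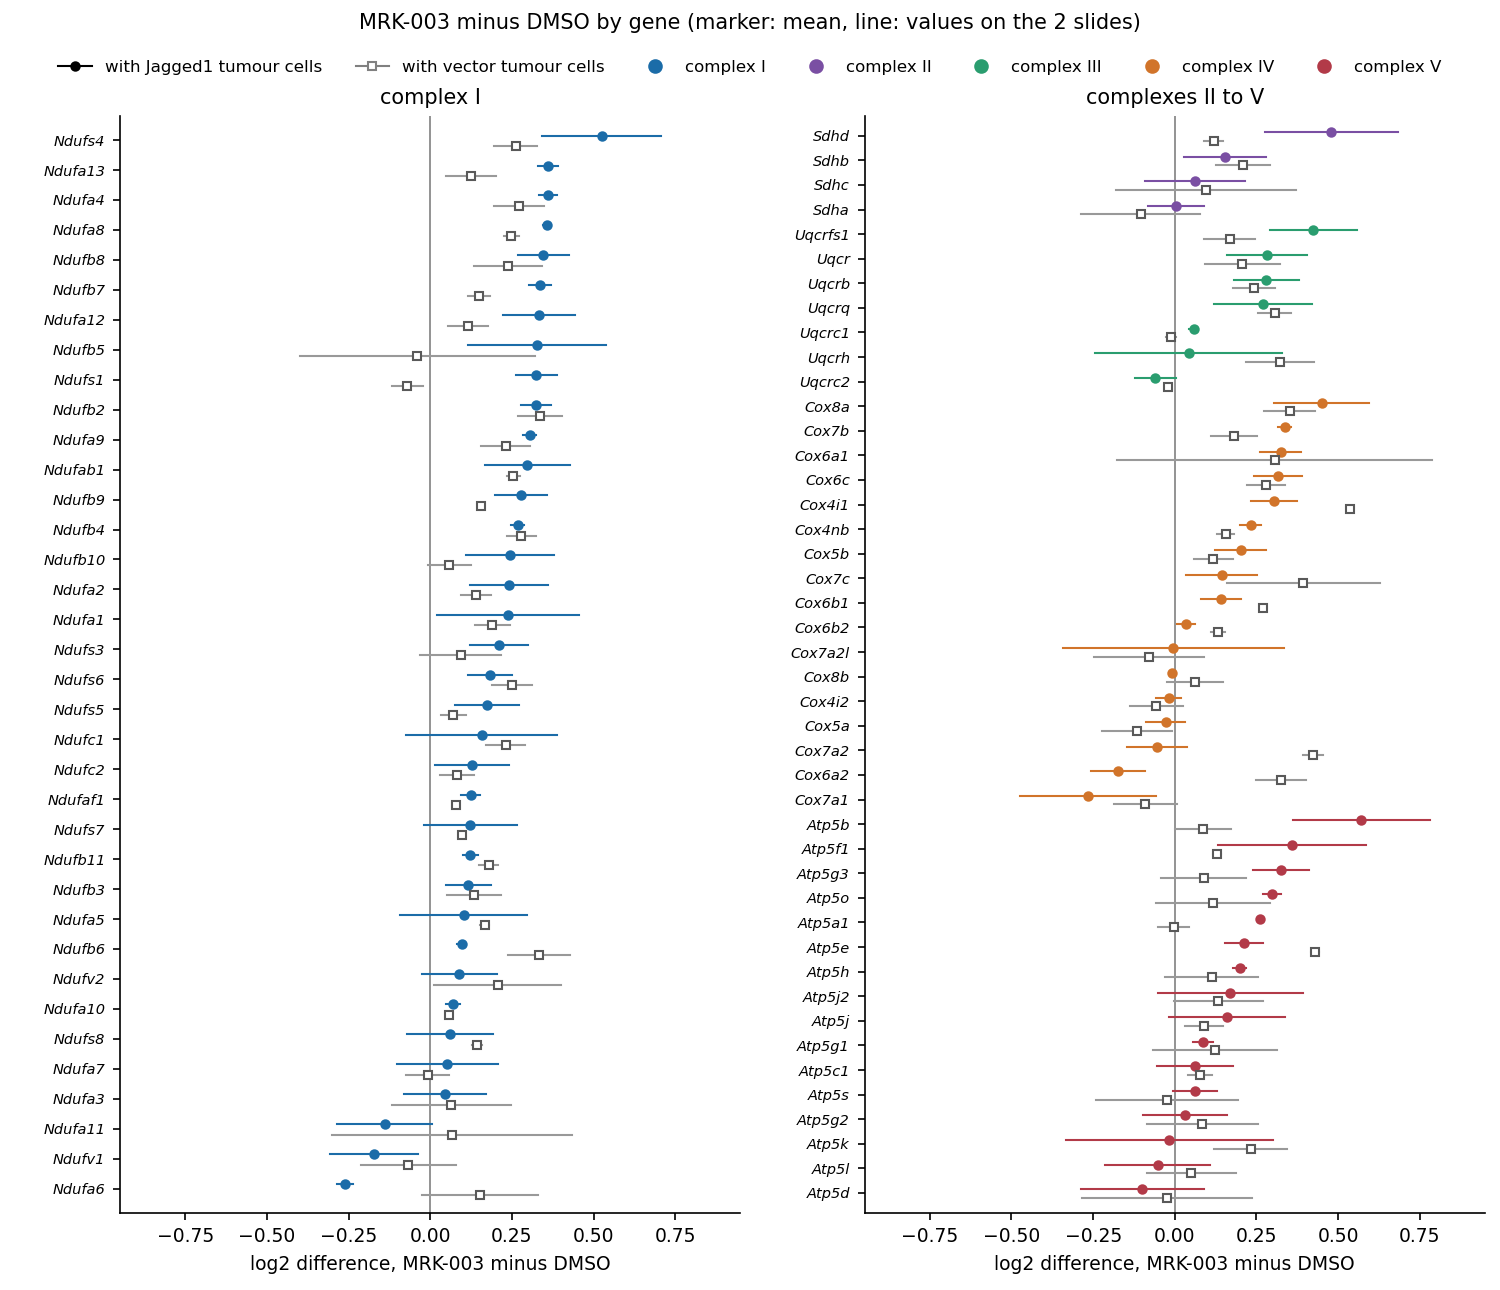
Difference between MRK-003 and DMSO (log2) for tested members, with Jagged1 tumour cells (filled circles) and with vector tumour cells (open squares), sorted within each complex. Lines join the values of the 2 slides. Most genes lie right of 0 with both kinds of tumour cell.

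The 2 MRK-003 comparisons share no array, though they share both slides and the reference RNA. Of 81 members, 59 were above 0 with both kinds of tumour cell, against 30.1% of all genes, 8 were below 0 with both, and 14 had opposite signs. In all 4 within-slide differences, 40 members (49.4%) were above 0, against 12% of all genes, and 0 were below. The 40 were 22 names of complex I, 2 of complex II, 4 of complex III, 9 of complex IV and 3 of complex V. Across the 81 members the 2 differences correlated with a Pearson r of 0.43, against 0.53 across all genes, which is a description across genes that share arrays and not a test. Cox7a2 was among those with opposite signs, but its second probe gave 0.10 with Jagged1 cells and 0.35 with vector cells.

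Brightness and Cy5 saturation were read beside the lean. The members are bright, with 58 of 81 among the brightest 10% of genes by Cy3, and the median of all genes in that class was 0.05 with Jagged1 cells (57.2% above 0) and -0.01 with vector cells (48.1% above 0), below the members' 0.16 and 0.13. The 59 tested members with no saturated Cy5 spot had medians of 0.12 with Jagged1 cells (45 above 0) and 0.13 with vector cells (46 above 0). The 22 with saturation had 0.27 (21 above 0) and 0.13 (20 above 0). Members with NRF1 or ETS letters in the window had medians of 0.16 with Jagged1 cells and 0.15 with vector cells (n = 30), and members with neither had 0.14 and 0.13 (n = 37). The part of brightness, saturation or these letters in the lean was not tested beyond these values.

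**Figure D4:**
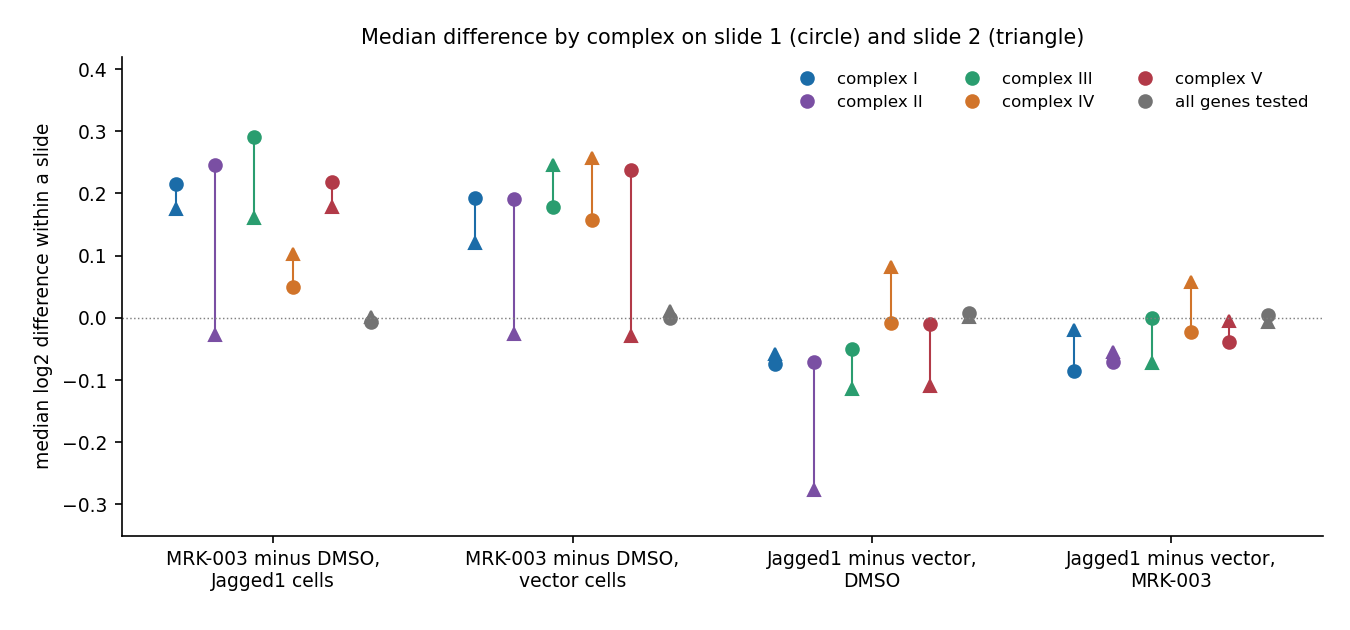
Median log2 difference of each complex and of all genes tested, within slide 1 (circles) and slide 2 (triangles), for the 4 comparisons. Both MRK-003 comparisons lie above 0 for complexes I, III and IV on each slide, and complex II lies at -0.03 on slide 2 in both.

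The comparison of Jagged1 with vector tumour cells asks what the overexpressed ligand did. In DMSO, 28 of 81 members were above 0, against 51.0% of all genes, with a median of -0.05, against 0.005 for all genes. No member passed an adjusted p of 0.05 in limma, where 0.00878% of all genes were called higher and 0.00878% lower. At an unadjusted p under 0.05, 0 members were higher, against 3.19% of all genes, and 1 was lower, against 4.94%. With the slide as a block, 3 were higher, against 9.58% of all genes, and 8 lower, against 10.4%. The 1 without the block was the ATP synthase alpha subunit Atp5a1, which stood at -0.19 and -0.24 in Jagged1 DMSO and 0.04 and 0.22 in vector DMSO, a difference of -0.35 ± 0.09 (adjusted p = 0.45, limma). Groups did not overlap for 19 members on the lower side, against 23.3% of all genes, and for 11 on the higher side, against 24.3%, so both shares were near or below the background. Medians by complex were -0.06 (I), -0.16 (II), -0.08 (III), 0.06 (IV) and -0.07 (V), and that of complex IV was 0.02 with the limited background. Under median centring, the members' median became -0.44 in DMSO and -0.45 in MRK-003, with 5 and 3 of 81 above 0, against -0.04 and -0.09 for all genes. The size of this difference thus changed with the normalization, while its sign did not.

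The most negative members in DMSO were Ndufb5, Sdhd and Ndufs1. Ndufb5 stood at -1.13 and -0.95 in Jagged1 DMSO and -1.24 and -0.04 in vector DMSO, so its difference of -0.40 ± 0.42 rests on replicate 2 of vector DMSO, without which it was 0.20. Sdhd stood at -1.12 and -1.09 in Jagged1 DMSO and -0.92 and -0.58 in vector DMSO, a difference of -0.36 ± 0.21. Ndufs1, the largest core subunit of complex I, stood at -0.77 and -0.56 in Jagged1 DMSO and -0.48 and -0.14 in vector DMSO, a difference of -0.35 ± 0.18, and these groups did not overlap. The most positive were the muscle isoforms Cox6a2 and Cox7a1 and the widely expressed Cox7a2, with 0.79, 0.59 and 0.40. With the limited background, Cox6a2 and Cox7a1 differed by 0.33 and 0.12, and Cox7a2 by 0.38. The second probe of Cox7a2 gave 0.11 without that limit. Summed Cy3 signal of 8 muscle markers ranged from 1814 to 5443 in Jagged1 DMSO and from 1350 to 5249 in vector DMSO, and 7 of the 8 had a difference above 0 with a median of 0.41, or 0.16 with the limited background. The summed signals were not normalized between arrays, and slide 2 was dimmer, so their ranges also carry the slide. The part of the muscle markers in the muscle isoforms was not tested.

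In MRK-003, Jagged1 against vector gave 27 of 81 members above 0, against 50.5% of all genes, with a median of -0.02, and 0 members or genes called in limma (0.0% in either direction). Groups did not overlap for 1 member on the higher side, against 7.25% of all genes, and for 8 on the lower side, against 8.85%. At an unadjusted p under 0.05 there were 0 members, against 0.228% of all genes higher and 0.4% lower, and with the slide as a block there were again 0, against 1.3% and 1.02%. The extremes were Uqcrh (-0.26), Sdhc (-0.21) and Ndufs8 (-0.15) on the lower side, and Cox7a1 (0.42), Cox6a2 (0.29) and Atp5b (0.16) on the higher side. With the limited background Cox7a1 and Cox6a2 became -0.03 and -0.01.

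The interaction subtracts the Jagged1 difference under MRK-003 from the one under DMSO, and it had a median of -0.04 over the members with 35 of 81 above 0, against 50.8% of all genes. No member and no gene was called in limma (0.0% in either direction), and no member reached an unadjusted p of 0.05, against 0.83% of all genes higher and 1.4% lower. With the slide as a block, 2 members were higher and 2 lower at that p, against 2.49% and 4.0% of all genes. The largest values were -0.48 ± 0.50 (Atp5b), -0.39 ± 0.26 (Ndufs1) and -0.37 ± 0.60 (Ndufb5) on one side, and 0.50 ± 0.48 (Cox6a2), 0.48 ± 0.31 (Cox7a2) and 0.41 ± 0.30 (Ndufa6) on the other. For Jagged1 against vector, the second Cox7a2 probe gave 0.11 under DMSO and -0.14 under MRK-003, against 0.40 and -0.08 for the probe used. An MRK-003 effect that differs between the 2 kinds of tumour cell was thus not detectable for any member at an adjusted p of 0.05.

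Other mitochondrial genes were read the same way, from lists chosen by name. Of 78 mitochondrial ribosome genes, 64 were above 0 in Jagged1 MRK-003 against Jagged1 DMSO with a median of 0.19, and 59 were above 0 in vector MRK-003 against vector DMSO with a median of 0.11. None passed the adjusted threshold, and Mrpl3, a protein of the large subunit, had a difference of 0.44 with Jagged1 cells (adjusted p = 0.18, limma). The 10 other genes of the respiratory chain had medians of 0.30 with Jagged1 cells (9 above 0) and 0.03 with vector cells (7 above 0). The gene with the smallest p there was Cycs, cytochrome c itself, with 0.71 ± 0.11 with Jagged1 cells (adjusted p = 0.078) and 0.49 with vector cells. The 28 assembly factors had medians of 0.16 and 0.04, the 19 genes of the citric acid cycle and pyruvate dehydrogenase had 0.14 and -0.04, and the 12 tested carriers and channels had 0.12 and 0.03. Pcx, pyruvate carboxylase, differed by 0.58 (adjusted p = 0.097) and Vdac2, a channel of the outer membrane, by 0.57 (adjusted p = 0.085) with Jagged1 cells.

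The 21 regulators of mitochondrial biogenesis did not share the lean, with medians of -0.00 with Jagged1 cells and -0.01 with vector cells and 10 above 0 in each. Esrra, the receptor ERR alpha, differed by -0.50 ± 0.14 with Jagged1 cells (adjusted p = 0.28, limma) and by -0.28 with vector cells. Of all genes in these 6 lists, 0 were called in either MRK-003 comparison by the fit with neither the block nor the limited background. In the slide-blocked fit with limited background, 10 of 78 mitochondrial ribosome genes, 4 of 10 other respiratory chain genes, 4 of 19 citric acid cycle genes, 3 of 12 carriers, 1 of 28 assembly factors and 1 of 21 regulators were called higher with Jagged1 cells, against 5.83% of all genes. The shares of assembly factors and regulators were below that of all genes. In that fit 1 ribosome gene (Mrpl24), 1 citric acid cycle gene (Dlst) and 1 regulator (Esrra) were called lower, against 3.89% of all genes. Names of genes encoded by mitochondrial DNA were found for 0 probes, so no subunit of that origin was read here.

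Markers of other cell types were read beside these results. In Jagged1 MRK-003 against Jagged1 DMSO, 0 of 8 tested epithelial markers and 2 of 9 macrophage markers were above 0, with medians of -0.28 and -0.27, or -0.09 and -0.04 with the limited background. In vector MRK-003 against vector DMSO the medians were 0.04 and 0.07. Summed Cy3 of the epithelial list ranged from 2721 to 3736 in Jagged1 MRK-003 and from 2366 to 4491 in Jagged1 DMSO, and that of the macrophage list from 4286 to 5466 in Jagged1 MRK-003 and from 2998 to 5210 in Jagged1 DMSO. Summed signals here and below were not normalized between arrays, and slide 2 was dimmer, so their ranges also carry the slide. All 9 macrophage markers and the 8 tested epithelial markers were well above background on all 8 arrays. Osteoblast markers had medians of 0.23 with Jagged1 cells (7 of 10 above 0) and -0.16 with vector cells (4 of 10 above 0). In Jagged1 DMSO against vector DMSO, all 8 epithelial and 7 of 9 macrophage markers were above 0, with medians of 0.65 and 0.79, or 0.17 and 0.05 with the limited background, and the osteoblast markers had a median of -0.25 (4 of 10 above 0). Summed Cy3 of the epithelial list ranged from 2366 to 4491 in Jagged1 DMSO and from 2011 to 3773 in vector DMSO, and that of the macrophage list from 2998 to 5210 in Jagged1 DMSO and from 2727 to 5855 in vector DMSO. In Jagged1 MRK-003 against vector MRK-003 the medians were 0.28 (epithelial), 0.46 (macrophage) and -0.02 (osteoblast), and with the limited background 0.0015, 0.01 and 0.01. The part of these shifts in the members' differences was not tested.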

How the data were processed

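Per the file headers, the arrays were read with Agilent Feature Extraction 9.5.3.1. The deposited intensity values used were, for Cy3 and Cy5, the mean of a spot and the median of its surroundings, and the deposited spot flags (0 or 1) gave saturation, outliers and signal well above background. Per the labels, 175 ng of RNA was labelled. The deposited log2 values of the authors equalled the scanner's processed ratios up to a constant per array (100% of probes within 0.02, column medians 0.12 to 0.20). Background was corrected with normexp (offset 50) and ratios by loess, with control spots at weight 0. Of 41174 probes, 303 were left out for outlier marks and 7811 as dim (Cy3 not well above background on both arrays of any group). limma 3.58.1 in R 4.3.3 fitted 4 group means to 8 arrays, with Benjamini-Hochberg adjustment over 22775 genes. The series design calls the replicates biological, and p-values measure the spread between 2 arrays per group. Deviations of arrays on 1 slide correlated at 0.39 to 0.74 over the 6 pairs of groups, so the slide pairs replicate numbers. The scripts were tested on simulated data. Values of 1 member are not reported here, though the counts and medians over members include it. Members and lists were chosen with earlier results of these data known. Named members are those called, the 3 highest and 3 lowest differences per comparison, listed isoforms and core subunits, the extremes of level per complex and names that are no subunit, and of each other list up to 3 genes of smallest p. Other genes named, such as those at an unadjusted p under 0.05, were chosen after their values were seen. Of the names, 76 were kept in RefSeq, 4 changed and 2 were not matched.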

Additional observations from a re-analysis of the deposited data

How the results depend on the processing

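The median difference of the members kept its sign under all 12 other settings in each of the 5 comparisons, and the counts of genes called did not hold. Not all of the 12 could move the median. The block leaves each difference as it is, and all tested members also passed the stricter filter on dim probes. The value table differs from the scanner's processed signals only by a constant per array. In Jagged1 against vector under DMSO, 4 genes were called, against 48 without background correction, 16 with the scanner's processed signals, 40 with the limited background, 0 with median centring, 42 with Cy3 alone, 44 with Cy3 alone and the limited background, 1 with the mean of all probes, 18 in the deposited value table, 106 with the replicate block and 885 with the replicate block and limited background. Leaving out 1 array gave 0 to 6. In MRK-003 against DMSO with Jagged1 cells, 71 genes became 499, 266, 499, 0, 204 and 180 under the first 6 of these settings, 267 in the value table, 521 with the block and 2214 with the block and limited background, and 1 to 13 without 1 array. The share of these calls that were higher was 38.0%, against 48.7% with the limited background, 58.9% with the block and 60.0% with both. With vector cells, block and limited background gave 7 genes. Jagged1 against vector under MRK-003 gave 0 to 1 without 1 array. The interaction gave 3 without background correction, 4 with the limited background, 3 with Cy3 alone, 3 with that and the limited background, 89 with the block and limited background, and 0 to 1 without 1 array. Members called stayed at 0 except with Jagged1 cells, MRK-003 against DMSO, where the block with limited background gave 10, and 0 to 7 without 1 array.

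The members' median in Jagged1 against vector under DMSO was -0.039 with processed signals, -0.040 in the value table, -0.44 with median centring, -0.075 with Cy3 alone and -0.076 with Cy3 and the limited background, and -0.079 to -0.019 without 1 array. Under MRK-003 it was -0.45 with median centring, 0.0015 within slide 2, and -0.038 to 0.020 without 1 array. In MRK-003 against DMSO with Jagged1 cells it was 0.20 with Cy3 alone, 0.21 with Cy3 and the limited background and 0.20 within slide 1, and 0.13 to 0.19 without 1 array. With vector cells it was 0.24 with median centring and 0.18 within slide 1, and 0.11 to 0.19 without 1 array. The interaction median was -0.0027 with median centring, and -0.054 to 0.011 without 1 array.

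Of the 740 values of named members in refits, 28 turned sign, and of the 62 within single slides, 5 did, all on slide 1. Among these 5 were, in Jagged1 against vector, Ndufb5 (0.11) under DMSO and Cox7a1 (-0.14) and Cox6a2 (-0.013) under MRK-003, and Sdha (0.077) in MRK-003 against DMSO with vector cells. Part of the 740 refits could not turn a sign. The block alone and the changed filters on dim probes left these values as they were. So did dropping an array of a group outside the comparison. The share that turned is thus no measure of stability. The 28 in refits follow, with those from leaving out an array as ranges. Under DMSO, Jagged1 against vector, Cox7a2 was -0.012 with median centring, Cox7a1 was -0.023 with Cy3 alone and -0.029 with Cy3 and the limited background, and Ndufb5 was -0.999 to 0.20 without 1 array, positive without replicate 2 of vector DMSO. Under MRK-003, Atp5b was -0.30 with median centring, -0.010 with the mean of probes and -0.076 to 0.40 without 1 array. Cox6a2 there was -0.0014 without background correction, -0.034 with processed signals, -0.011 with the limited background with or without the block, -0.065 with median centring, -0.0015 with Cy3 alone, -0.00028 with Cy3 and the limited background, -0.017 in the value table and -0.14 to 0.72 without 1 array. Cox7a1 there was -0.042 without background correction, -0.081 with processed signals, -0.025 with the limited background with or without the block, -0.069 with Cy3 alone, -0.088 with Cy3 and the limited background and -0.063 in the value table. In MRK-003 against DMSO, Cox7a1 with Jagged1 cells was -0.68 to 0.15 without 1 array, positive without replicate 1 of Jagged1 MRK-003. With vector cells Cox5a was 0.012 with median centring, and Sdha was -0.22 to 0.0077 without 1 array. The interaction of Ndufb5 was -0.97 to 0.23 without 1 array. The causes were not tested. Cy3 alone with the limited background, and dropping arrays from the blocked fit, were added after seeing the data. With 2 arrays a group, a lone array is assumed to vary like the other groups, and saturated Cy5 spots and dim isoforms limit precision.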
